A study of Mus musculus with 16 samples.

Results

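The comparison set mouse embryonic stem (ES) cells grown with 200 µM NiCl2 for 6 days against time-matched cells grown without nickel. Its members were chosen by their titles: 2 libraries of the nickel group and 2 of the control group, 4 of the 16 samples in the series. The full deposited table of this contrast lists 26239 genes, of which 17018 carry an adjusted p-value, the authors' p-value corrected for the number of genes tested. The series as a whole tested 0, 100, 150 and 200 µM NiCl2, a soluble nickel salt, on days 4 and 6.

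Per the labels, the nickel group was E14Tg2A cells of wild-type genotype exposed to 200 µM NiCl2 and collected on day 6, with nickel renewed after each passage every 2 days. The control group was the same wild-type line passaged alongside without NiCl2 and collected on day 6. Both groups were kept in DMEM with fetal bovine serum and leukemia inhibitory factor (LIF), the cytokine that keeps mouse ES cells undifferentiated. Poly(A) RNA was sequenced in bulk from a stranded kit. E14Tg2A is a single established line, so every value here describes 1 genetic background. The labels give the replicates as A and B and do not say whether they came from separate cultures. The p-values then measure only how far these libraries differ, which may be technical. The deposited tables give 1 value per group and gene, in RPKM (reads scaled to transcript length and to library size), so no value of a single library can be shown and no overlap between libraries can be read.

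Read depth was recovered from the steps that single reads leave in the RPKM of single-exon genes, taking each group's RPKM as the mean of its 2 libraries, which the files do not state. The nickel libraries held about 61500000 and 76800000 counted reads, and the control libraries about 58800000 and 70800000. Of the low values used, 97.5% in the nickel group and 98.1% in the control group lay within 0.6% of such a step. An RPKM of 1 over a 2 kb transcript then stands for 123 reads in the shallower nickel library and 118 in the shallower control library, so values far under 1 rest on few reads.

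As background, mouse ES cells keep an undifferentiated state through factors such as Oct4 (Pou5f1), Sox2 and Nanog, while Polycomb complexes and DNA methylation hold genes of later development at low levels. Nickel ions are known to interfere with dioxygenases that need iron and 2-oxoglutarate. These include the prolyl hydroxylases that mark hypoxia-inducible factor (HIF) for destruction, the JmjC histone demethylases and the TET enzymes, which oxidise methylated DNA. The comparison asks which genes changed after 6 days at the highest dose.

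At an adjusted p under 0.05 in the authors' deposited table, 1002 genes were higher in nickel-treated cells and 899 were lower, which is 5.89% and 5.28% of the 17018 genes with an adjusted p. Most changes were modest: the median log2 fold change of nickel over control was 0.78 among the higher genes and -0.71 among the lower genes in the authors' deposited table. A change of at least 2-fold was reached by 359 of the higher and 336 of the lower genes, and 303 and 358 lay under 1.5-fold. The median over all genes with an adjusted p was 0.005. At an unadjusted p under 0.05, the base for the unadjusted counts below, 2068 genes were higher (12.2%) and 1997 lower (11.7%). Standard errors (SE) given here are those implied by the authors' fold change and p-value, with a median of 0.159 on the log2 scale for genes at an RPKM of at least 1 in a group.

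The calls were spread unevenly over expression levels. Among 5916 genes at a mean RPKM of both groups between 1 and 10, 8.72% were higher in nickel-treated cells and 5.38% lower. Among 1843 genes between 30 and 100, 4.12% were higher and 10.5% lower. Genes at a mean RPKM up to 1 numbered 5209, with 3.90% higher and 3.38% lower. Over the 20 chromosomes with at least 100 genes at an RPKM of at least 1, the median log2 fold change ran between -0.052 for chromosome 16 and 0.022 for chromosome 9.

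**Figure D1:**
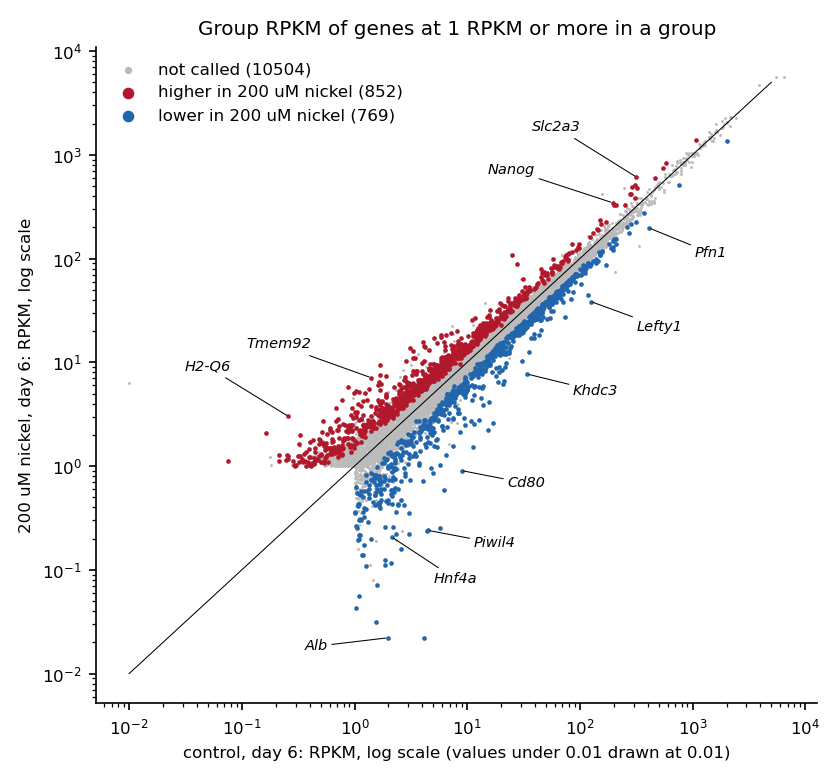
Group RPKM on log scales of the 12125 genes with an adjusted p and an RPKM of at least 1 in a group, nickel on the vertical axis and control on the horizontal, with 1 point per gene. The 852 red points were higher in 200 µM nickel and the 769 blue points lower. The blue points reach farther from the diagonal at the lower end, where Alb had an RPKM of 0.0221 in nickel-treated cells and 1.97 in control cells.

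Markers of ES cells were high in both groups. The 12 fixed ES cell markers summed to an RPKM of 7945 in nickel-treated cells and 6670.1 in control cells. Dppa5a alone gave 4660 in nickel-treated cells and 3880 in control cells, and did not pass the test. Of the 12, 2 were higher and 0 lower. The lowest of them stood at 55.5 in nickel-treated cells and 51.1 in control cells. Pou5f1, the core pluripotency factor Oct4, had an RPKM of 857 in nickel-treated cells and 767 in control cells, with a log2 fold change of 0.18 (SE 0.11) and an adjusted p of 0.32 in the authors' deposited table. Sox2, its partner factor, had 286 in nickel-treated cells and 252 in control cells, with an adjusted p of 0.23 in the authors' deposited table. Neither passed the test.

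Of 30 core and naive pluripotency genes, 9 were higher and 4 lower, with a median log2 fold change of 0.16 against 0.005 for all genes, where 5.89% were called higher and 5.28% lower. Nanog, the homeodomain factor of the naive state (chromosome 6, 122707565 to 122714633), had an RPKM of 345 in nickel-treated cells and 195 in control cells, a log2 fold change of 0.81 (SE 0.11, adjusted p = 5.7e-11) in the authors' deposited table. Tet2, a TET enzyme, rose to 32.5 in nickel-treated cells against 19 in control cells (log2 fold change 0.79, SE 0.11, adjusted p = 2.8e-10 in the authors' deposited table). Prdm14, a repressor of DNA methyltransferase genes and of differentiation, had 13.4 in nickel-treated cells and 7.33 in control cells, and Tbx3 had 45.8 in nickel-treated cells and 32.0 in control cells. Tdgf1, the Nodal co-receptor Cripto, had 839 in nickel-treated cells and 586 in control cells, and Klf4, a target of LIF signalling, had 82.7 in nickel-treated cells and 66.2 in control cells. All 4 passed the test.

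The 4 lower members were also factors of the naive network. Klf5, a Krüppel-like factor, fell to an RPKM of 31.0 in nickel-treated cells against 57.6 in control cells (log2 fold change -0.87, SE 0.13, adjusted p = 1.1e-08 in the authors' deposited table). Gbx2, a homeobox target of LIF and STAT3, fell to 8.02 in nickel-treated cells against 16.6 in control cells. Dppa3, which protects methylation marks in the early embryo, had 2.29 in nickel-treated cells and 4.57 in control cells, and Stat3 itself had 21.3 in nickel-treated cells and 27.1 in control cells.

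Genes of the formative and primed states, which follow the naive state, had 6 of 22 members lower and 3 higher. Their median log2 fold change was -0.08, and 0.016 among members at an RPKM of at least 1. The de novo DNA methyltransferases were among the lower ones, as were Lefty1 and Lefty2. Both Lefty genes also stand in the list of BMP, Nodal and TGF-beta genes below. Dnmt3b fell to an RPKM of 26.5 in nickel-treated cells against 54.3 in control cells (log2 fold change -1.01, SE 0.17, adjusted p = 3.2e-07 in the authors' deposited table). Dnmt3a fell to 12.8 in nickel-treated cells against 23.5 in control cells (log2 fold change -0.84, SE 0.12, adjusted p = 1.8e-10 in the authors' deposited table). Dnmt3l, their catalytically inactive cofactor, did not pass the test, at 195 in nickel-treated cells and 168 in control cells. Tcf15, a factor of epiblast maturation, also fell (log2 fold change -0.51, SE 0.17, adjusted p = 0.025 in the authors' deposited table).

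Higher members of that list were Fgf15, Otx2 and Zic2. Fgf15, a secreted fibroblast growth factor, rose to an RPKM of 15.7 in nickel-treated cells against 6.22 in control cells (log2 fold change 1.36, SE 0.18, adjusted p = 5.3e-12 in the authors' deposited table). Otx2, a factor of the primed epiblast and the forebrain, had 24.5 in nickel-treated cells and 16.7 in control cells, and Zic2 had 11.4 in nickel-treated cells and 7.74 in control cells. The rise of Otx2 was not seen on day 4, at 25.1 in cells with 200 µM nickel and 25.7 in control cells. Its nickel values were close on both days, and its control value was lower on day 6. The difference between its log2 fold changes on the 2 days was 0.54 (SE 0.20) and did not pass the test described below. At 100 and 150 µM on day 6, Otx2 had 15.2 and 18.0.

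Of the signalling pathways that feed this network, LIF and STAT3 showed 5 of 17 genes lower and 2 higher, with a median of 0.01, and Stat3, Klf5, Gbx2 and Klf4 stand in both this list and the naive one. Socs3, the feedback inhibitor that STAT3 induces, fell to an RPKM of 45.1 in nickel-treated cells against 70.4 in control cells (log2 fold change -0.62, SE 0.12, adjusted p = 1.8e-05 in the authors' deposited table). Junb, also counted among the immediate early genes, had 8.66 in nickel-treated cells and 14.3 in control cells. Mcl1, an anti-apoptotic protein, rose to 227 in nickel-treated cells against 171 in control cells. In the list of BMP, Nodal and TGF-beta genes, 7 of 36 were higher and 3 lower, with a median of 0.21.

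The Nodal antagonists were the clearest members of that list. Lefty1 fell to an RPKM of 38.5 in nickel-treated cells against 125 in control cells (log2 fold change -1.68, SE 0.17, adjusted p = 8.7e-20 in the authors' deposited table). Lefty2 fell to 27.5 in nickel-treated cells against 74.2 in control cells (log2 fold change -1.41, SE 0.13, adjusted p = 6.3e-23 in the authors' deposited table). Nodal itself, the ligand they block, did not pass the test, at 49.7 in nickel-treated cells and 40.9 in control cells. Id3, a BMP target, rose to 18.1 in nickel-treated cells against 10.1 in control cells, and Ccn2 rose to 9.43 in nickel-treated cells against 6.18 in control cells.

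Genes induced by ERK signalling had 4 of 25 lower, 0 higher and a median of -0.25. At an unadjusted p under 0.05, 9 were lower and 2 higher. Fos had an RPKM of 0.969 in nickel-treated cells and 2.13 in control cells, Egr1 had 5.01 in nickel-treated cells and 9.19 in control cells, and Spry4, an inhibitor of receptor tyrosine kinase signalling, had 34.6 in nickel-treated cells and 46.6 in control cells. Among 22 WNT targets and effectors 0 passed, with 2 higher and 2 lower at an unadjusted p under 0.05. Ctnnb1, which encodes beta-catenin, had 219 in nickel-treated cells and 246 in control cells.

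Transcription factors of later development are held at low levels in ES cells, and 4 lists of them were read together: Hox clusters, endoderm, mesoderm with heart and limb, and neural and sensory factors. Of 222 such genes in the table, 157 had an adjusted p, 25 were higher (15.9%) and 8 lower (5.10%), and the median log2 fold change was 0.84. A positive log2 fold change was seen in 119 of the 157. The higher factors stayed low in absolute terms. Their median RPKM was 1.08 in nickel-treated cells and 0.336 in control cells, and 13 of the 25 lay above 1 in nickel-treated cells.

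Low-level genes in general also leaned upward in this table, so the factors were set beside them. Of all 5209 genes at a mean RPKM up to 1, 57.0% had a positive log2 fold change, with a median of 0.17. Of the 133 developmental factors at that level, 19 were higher (14.3%, against 3.90% of all such genes) and 2 lower (1.5%, against 3.38%), with a median of 0.99. The size of these medians depends on how low values are weighed: on the log2(RPKM + 1) scale, which compresses low values, they were 0.110 for the Hox clusters, 0.072 for endoderm, 0.132 for mesoderm and 0.064 for neural factors. In bulk RNA, more cells that express a gene and more RNA per cell cannot be told apart.

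**Figure D2:**
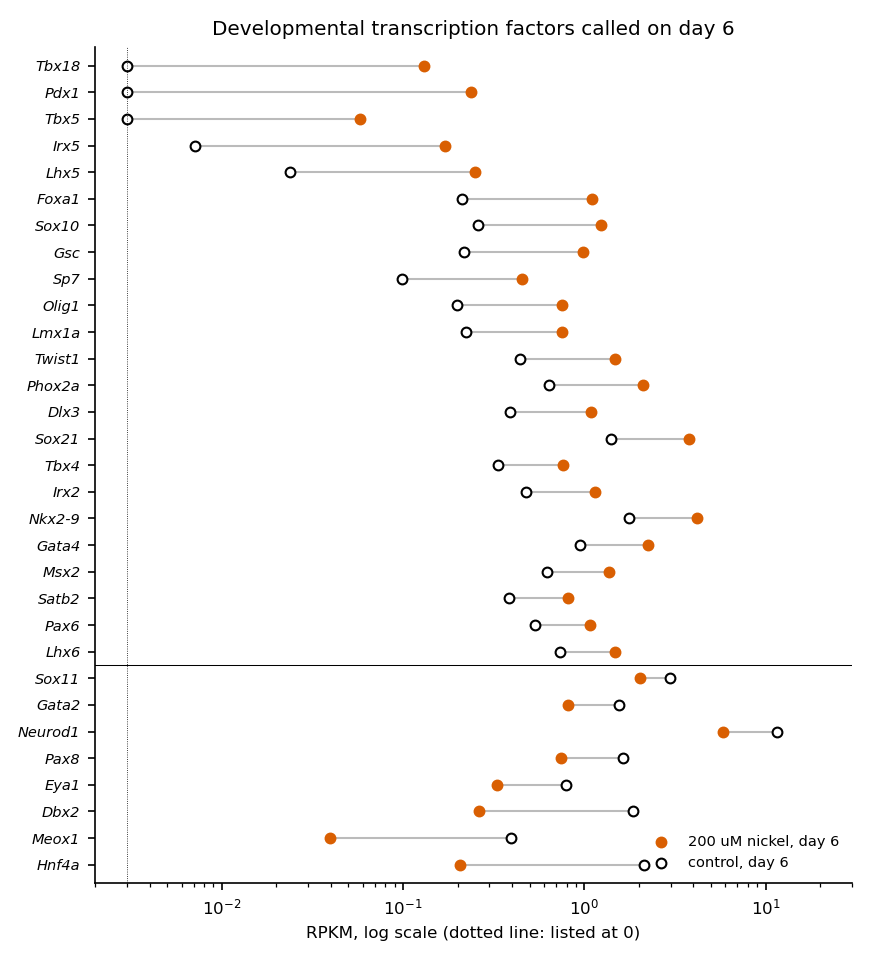
RPKM on a log scale of the 31 endoderm, mesoderm and neural transcription factors called on day 6, with filled points for 200 µM nickel and open points for control, ordered by log2 fold change. The 23 above the line were higher in nickel-treated cells and the 8 below it lower. Most filled points among the higher factors sit near or under an RPKM of 1, and Tbx18, Pdx1 and Tbx5 were listed at 0 in control cells.

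Among neural and sensory factors, 13 of 69 were higher and 3 lower, with a median of 0.75. Sox21, a SoxB2 factor of neural progenitors, rose to an RPKM of 3.76 in nickel-treated cells against 1.41 in control cells (log2 fold change 1.44, SE 0.21, adjusted p = 5.3e-10 in the authors' deposited table). Sox10, a neural crest factor, rose to 1.24 in nickel-treated cells against 0.258 in control cells (log2 fold change 2.29, SE 0.42, adjusted p = 3.5e-06 in the authors' deposited table). Phox2a, a factor of autonomic and motor neurons, had 2.11 in nickel-treated cells and 0.636 in control cells, and Nkx2-9, a ventral neural factor, had 4.18 in nickel-treated cells and 1.77 in control cells. The lower ones were Neurod1, at 5.83 in nickel-treated cells and 11.5 in control cells, Dbx2, at 0.261 in nickel-treated cells and 1.86 in control cells, and Sox11, at 2.04 in nickel-treated cells and 2.97 in control cells.

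Endoderm factors moved in opposite directions. Foxa1, a pioneer factor of endoderm and liver (chromosome 12, 57540628 to 57546111), rose to an RPKM of 1.11 in nickel-treated cells against 0.212 in control cells (log2 fold change 2.41, SE 0.49, adjusted p = 4.6e-05 in the authors' deposited table). Gata4 rose to 2.24 in nickel-treated cells against 0.947 in control cells, and Gsc rose to 0.985 in nickel-treated cells against 0.218 in control cells. Pdx1, the pancreatic factor, had 0.238 in nickel-treated cells and was listed at 0 in control cells. Hnf4a, a nuclear receptor of liver and visceral endoderm (chromosome 2, 163506857 to 163572907), fell to 0.207 in nickel-treated cells against 2.14 in control cells, a log2 fold change of -3.35 (SE 0.31, adjusted p = 1.6e-23) in the authors' deposited table. Together 4 of 18 were higher and 1 lower, with a median of 0.42.

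Of 47 factors of mesoderm, heart and limb, 6 were higher and 4 lower, with a median of 0.99. Twist1, a mesenchymal factor, rose to an RPKM of 1.48 in nickel-treated cells against 0.442 in control cells, and Tbx18 had 0.131 in nickel-treated cells and was listed at 0 in control cells. Gata2, Pax8, Eya1 and Meox1 were lower, for example Gata2 at 0.812 in nickel-treated cells and 1.56 in control cells. In the Hox clusters, 2 of 23 genes were higher and 0 lower, with 5 higher and 0 lower at an unadjusted p under 0.05 and a median of 1.24. Hoxd1, an anterior Hox gene, rose to 0.654 in nickel-treated cells against 0.128 in control cells.

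Of the secreted signals and receptors of development, 3 of 39 were higher and 1 lower, near the 5.89% and 5.28% of all genes. Their median was 0.41, and 0.088 on the log2(RPKM + 1) scale. Sfrp1 and Sfrp5, secreted antagonists of WNT ligands, both rose. Sfrp1 had an RPKM of 27.4 in nickel-treated cells and 14.9 in control cells, and Sfrp5 had 2.42 in nickel-treated cells and 0.730 in control cells. Dhh, the ligand Desert hedgehog, had 0.368 in nickel-treated cells and 0.114 in control cells. Sfrp2 was the lower member, at 4.57 in nickel-treated cells and 6.82 in control cells.

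Genes of the 2-cell-like state, which a small share of ES cells in culture express transiently, were read next. Of 30 listed genes in the table, 27 had an adjusted p, 13 were higher and 0 lower, with 20 higher and 0 lower at an unadjusted p under 0.05 and a median log2 fold change of 1.61. Their RPKM summed to 185 in nickel-treated cells and 61.7 in control cells. Tmem92 rose to 7.11 in nickel-treated cells against 1.40 in control cells (log2 fold change 2.37, SE 0.26, adjusted p = 2.7e-17 in the authors' deposited table). Arg2, a mitochondrial arginase, rose to 5.06 in nickel-treated cells against 0.986 in control cells (log2 fold change 2.40, SE 0.41, adjusted p = 6.1e-07 in the authors' deposited table). The deubiquitinase copies Usp17le and Usp17la rose to 12.9 and 6.09 in nickel-treated cells, against 3.31 and 1.63 in control cells.

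The Zscan4 genes, the best-known markers of that state, had a larger error. Zscan4a had an RPKM of 22.5 in nickel-treated cells and 7.33 in control cells, with a log2 fold change of 1.65 (SE 0.68) and an adjusted p of 0.096 in the authors' deposited table. Zscan4d had 18.6 in nickel-treated cells and 7.43 in control cells, with an adjusted p of 0.28 in the authors' deposited table. Usp17l, Zscan4 and Gm2022 genes have near-identical copies, so the split of reads among their members is uncertain.

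HIF binds an ACGTG core in hypoxia response elements, ATF4 binds elements containing TGATGNAA, and the metal-sensing factor MTF-1 binds metal response elements of the form TGCACNC or TGCGCNC. The 250 bases before the start are shown for 6 genes whose changes the next paragraphs describe, 3 targets of HIF, 1 of ATF4 and 2 metallothioneins, taken from RefSeq on GRCm38.p6. Capitals mark matches on either strand to ACGTG in the first 3 windows, to TGATGNAA in that of Chac1 and to the metal element in those of the metallothioneins, and matches to the other elements are not marked. Each sequence runs in the direction of its gene. The windows are chr4:119108495-119108744 (plus strand), chr11:120948817-120949066 (plus), chr2:11502091-11502340 (minus), chr2:119350992-119351241 (plus), chr8:94178839-94179088 (plus) and chr8:94172368-94172617 (plus).
Slc2a1: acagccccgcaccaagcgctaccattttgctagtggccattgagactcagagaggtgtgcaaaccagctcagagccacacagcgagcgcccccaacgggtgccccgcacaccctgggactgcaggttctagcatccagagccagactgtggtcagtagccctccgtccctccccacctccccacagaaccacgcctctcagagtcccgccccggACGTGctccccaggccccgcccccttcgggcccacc
Slc16a3: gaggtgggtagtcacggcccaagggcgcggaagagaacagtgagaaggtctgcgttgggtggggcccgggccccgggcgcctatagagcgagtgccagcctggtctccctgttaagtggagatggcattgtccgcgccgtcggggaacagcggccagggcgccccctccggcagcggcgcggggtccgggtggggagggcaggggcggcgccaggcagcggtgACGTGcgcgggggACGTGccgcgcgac
Pfkfb3: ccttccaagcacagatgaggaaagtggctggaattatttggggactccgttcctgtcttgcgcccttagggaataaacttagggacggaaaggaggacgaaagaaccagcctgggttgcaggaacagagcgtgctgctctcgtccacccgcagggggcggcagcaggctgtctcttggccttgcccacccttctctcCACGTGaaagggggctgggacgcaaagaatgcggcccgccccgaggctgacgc
Chac1: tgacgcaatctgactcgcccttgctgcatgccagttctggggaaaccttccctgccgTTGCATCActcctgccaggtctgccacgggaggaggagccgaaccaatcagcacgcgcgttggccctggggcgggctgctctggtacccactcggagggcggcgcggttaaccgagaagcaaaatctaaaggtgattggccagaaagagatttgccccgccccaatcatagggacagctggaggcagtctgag
Mt1: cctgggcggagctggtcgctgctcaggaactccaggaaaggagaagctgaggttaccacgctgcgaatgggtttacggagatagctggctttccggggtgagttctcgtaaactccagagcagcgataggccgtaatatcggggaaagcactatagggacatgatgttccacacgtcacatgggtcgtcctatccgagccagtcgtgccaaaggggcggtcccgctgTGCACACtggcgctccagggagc
Mt2: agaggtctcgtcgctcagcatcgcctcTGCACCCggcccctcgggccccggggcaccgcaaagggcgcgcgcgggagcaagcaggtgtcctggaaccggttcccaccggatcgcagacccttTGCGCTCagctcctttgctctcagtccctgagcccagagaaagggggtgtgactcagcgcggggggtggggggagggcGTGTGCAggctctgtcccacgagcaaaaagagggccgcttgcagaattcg

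In the Pfkfb3 window the core matched both strands at overlapping positions. Promoters were matched for 59 of the 70 genes in the hypoxia and glycolysis lists. The ACGTG core lay in 27 of the 59 (45.8%) and in 13 of the 19 promoters (68.4%) of members that were higher in nickel-treated cells. It lay in 20.8% of the 13253 promoters matched among all 17018 genes. Over all calls, it lay in 21.8% of the 781 matched promoters of higher genes and in 19.5% of the 696 of lower genes. The 19 promoters were also richer in G and C, with a median of 66.4% against 59.2% for all, and held the metal element in 52.6% against 29.6%. The part of base composition in the ACGTG share was not tested. For the ATF4 list, TGATGNAA lay in 9 of 33 promoters (27.3%) and in 2 of 8 (25.0%) of the lower members, against 2.09% of all matched promoters. A match describes the letters of the window alone, and the sets were not tested.

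Of 45 hypoxia targets outside glycolysis, 16 were higher and 2 lower, and 27 did not pass the test, with a median log2 fold change of 0.32. Slc16a3, the lactate exporter MCT4, rose to an RPKM of 64.1 in nickel-treated cells against 31.3 in control cells (log2 fold change 1.05, SE 0.11, adjusted p = 9.6e-18 in the authors' deposited table). Its window holds ACGTG at 2 places. Pfkfb3, which makes the activator of phosphofructokinase, rose to 7.54 in nickel-treated cells against 3.23 in control cells (log2 fold change 1.25, SE 0.15, adjusted p = 1.2e-13 in the authors' deposited table). The collagen-modifying hydroxylases P4ha2 and Plod2 rose to 14.7 and 39.3 in nickel-treated cells, against 7.25 and 22.8 in control cells. Ddit4, an inhibitor of mTORC1, rose to 137 in nickel-treated cells against 84.5 in control cells.

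Not every hypoxia target followed. Fam162a had an RPKM of 131 in nickel-treated cells and 128 in control cells, and did not pass the test. Bhlhe41, a circadian repressor, and Fos were the 2 lower members, Bhlhe41 at 0.125 in nickel-treated cells and 0.372 in control cells. Of 25 genes of glycolysis and glucose transport, 6 were higher and 0 lower, with 12 higher and 1 lower at an unadjusted p under 0.05 and a median of 0.28. The glucose transporters led: Slc2a3 rose to 610.0 in nickel-treated cells against 317 in control cells (log2 fold change 0.96, SE 0.10, adjusted p = 1.2e-18 in the authors' deposited table). Slc2a1 rose to 329 in nickel-treated cells against 200.0 in control cells (log2 fold change 0.74, SE 0.10, adjusted p = 3.6e-10 in the authors' deposited table). The enzymes Pfkl and Eno1 rose to 138 and 746 in nickel-treated cells, against 97.9 and 548 in control cells, while Gapdh, at 1960 in nickel-treated cells and 1610 in control cells, had an adjusted p of 0.078 in the authors' deposited table.

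ATF4 drives amino acid synthesis and uptake under stress. Of 38 genes, Atf4 and its targets, 9 were lower, Atf4 among them, and 1 higher, with a median of -0.27. Atf4 itself fell to an RPKM of 125 in nickel-treated cells against 190.0 in control cells (log2 fold change -0.60, SE 0.11, adjusted p = 1.3e-05 in the authors' deposited table). Chac1, which degrades glutathione, fell to 6.59 in nickel-treated cells against 21.0 in control cells (log2 fold change -1.66, SE 0.18, adjusted p = 2.1e-17 in the authors' deposited table). Trib3, a pseudokinase that restrains ATF4, had 12.4 in nickel-treated cells and 21.7 in control cells, Pck2 had 11.9 in nickel-treated cells and 19.1 in control cells, and Slc7a5, a leucine transporter, had 48.8 in nickel-treated cells and 67.9 in control cells. Pycr1, an enzyme of proline synthesis, was the higher member (log2 fold change 0.50, SE 0.16, adjusted p = 0.017 in the authors' deposited table). Asns, asparagine synthetase, did not pass the test, at 204 in nickel-treated cells and 176 in control cells.

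Aminoacyl-tRNA synthetases, which ATF4 also induces, had 3 of 20 lower and 0 higher, with 7 lower and 0 higher at an unadjusted p under 0.05 and a median of -0.20. Sars fell to an RPKM of 50.8 in nickel-treated cells against 74.8 in control cells (log2 fold change -0.54, SE 0.11, adjusted p = 0.0001 in the authors' deposited table). Chaperones of the endoplasmic reticulum went the other way, with 4 of 23 higher, 1 lower and a median of 0.20. Calr, the calcium-binding chaperone calreticulin, rose to 329 in nickel-treated cells against 211 in control cells (log2 fold change 0.66, SE 0.10, adjusted p = 3.5e-08 in the authors' deposited table), and Hspa5, the chaperone BiP, rose to 176 in nickel-treated cells against 131 in control cells. Herpud1, a factor of protein degradation from that compartment, fell to 6.01 in nickel-treated cells against 11.0 in control cells.

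Of 26 heat shock genes, 2 were higher and 0 lower, with 2 higher and 3 lower at an unadjusted p under 0.05 and a median of -0.15. The higher ones were the inducible Hspa1a and Hspa1b, near-identical copies whose reads may be split: Hspa1b had an RPKM of 1.38 in nickel-treated cells and 0.370 in control cells, and Hspa1a 0.649 in nickel-treated cells and 0.201 in control cells. The abundant Hsp90ab1 did not pass the test, at 2250 in nickel-treated cells and 2450 in control cells.

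**Figure D3:**
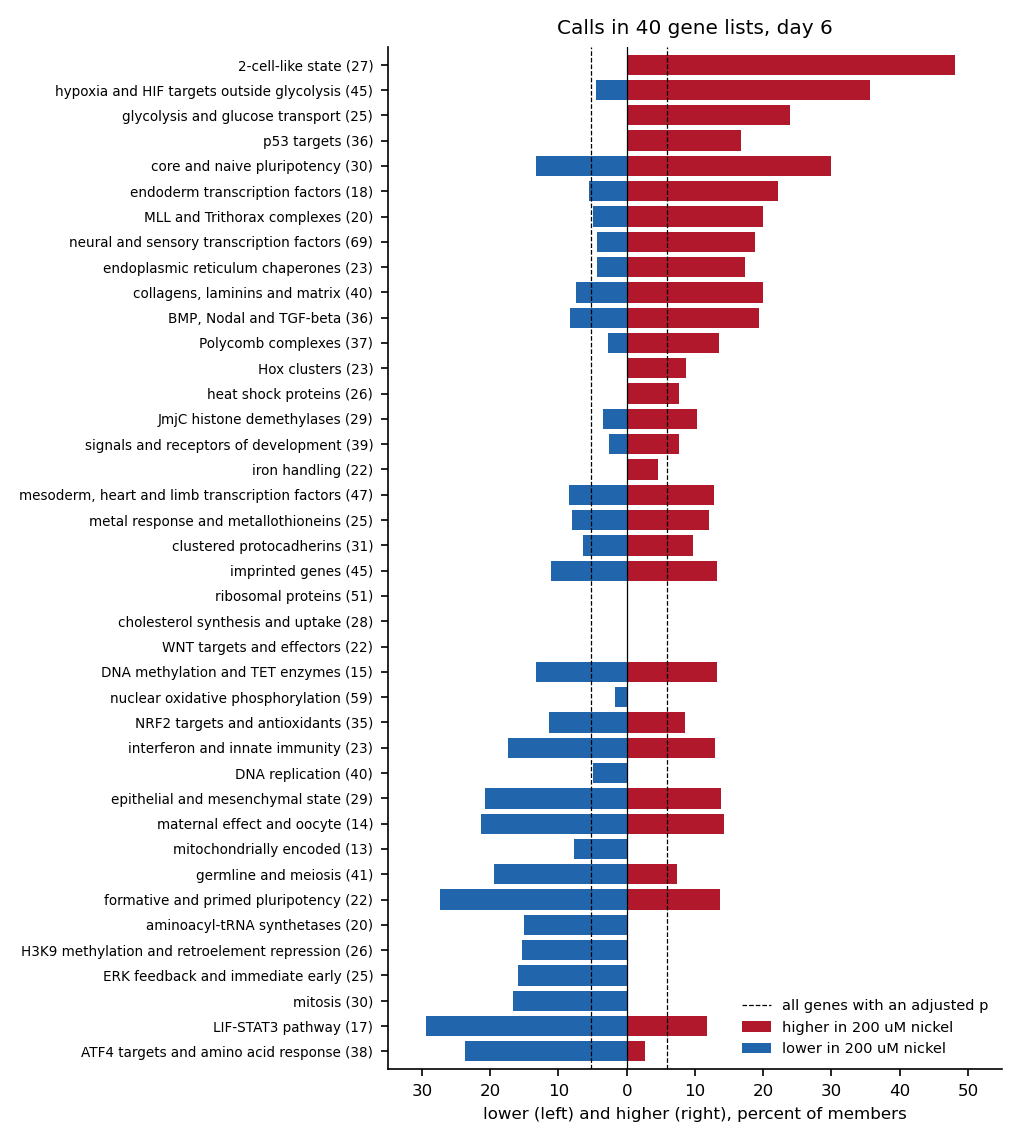
Share of members called higher (red, to the right) and lower (blue, to the left) in each of 40 gene lists, as a percent of the members with an adjusted p, whose number stands in parentheses. Dashed lines mark 5.89% higher and 5.28% lower over all genes. The 2-cell-like list reaches 48.1% higher and the hypoxia list 35.6%, while the ATF4 list reaches 23.7% lower.

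Metal handling showed 3 of 25 genes higher and 2 lower, with a median of 0.02. The metallothioneins Mt1 and Mt2, small proteins that bind zinc and other metals, were higher. Mt2 rose to an RPKM of 475 in nickel-treated cells against 322 in control cells (log2 fold change 0.58, SE 0.13, adjusted p = 0.00018 in the authors' deposited table), and Mt1 rose to 214 in nickel-treated cells against 153 in control cells (log2 fold change 0.50, SE 0.12, adjusted p = 0.00072 in the authors' deposited table). Mt3, the brain form, fell to 1.69 in nickel-treated cells against 4.47 in control cells. Of 22 iron-handling genes, 1 was higher and 0 lower, with a median of -0.22, and 1 was higher and 4 lower at an unadjusted p under 0.05. The higher one was Tfrc, the transferrin receptor, at 99.3 in nickel-treated cells and 77.0 in control cells.

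Antioxidant genes, many of them targets of NRF2, moved in both directions, with 3 of 35 higher, 4 lower and a median of -0.10. Glutathione peroxidases stood on both sides. Gpx4, which removes lipid peroxides, rose to an RPKM of 514 in nickel-treated cells against 308 in control cells (log2 fold change 0.75, SE 0.11, adjusted p = 1.4e-09 in the authors' deposited table). Gpx1 rose to 236 in nickel-treated cells against 152 in control cells. Gpx2 fell to 2.71 in nickel-treated cells against 10.7 in control cells (log2 fold change -1.97, SE 0.28, adjusted p = 7.9e-10 in the authors' deposited table). Sqstm1, the autophagy receptor p62, fell to 61.6 in nickel-treated cells against 80.4 in control cells.

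Of 36 p53 targets, 6 were higher and 0 lower, with 12 higher and 3 lower at an unadjusted p under 0.05 and a median of 0.18. Pmaip1, the pro-apoptotic protein Noxa, rose to an RPKM of 23.7 in nickel-treated cells against 13.8 in control cells (log2 fold change 0.80, SE 0.15, adjusted p = 3.1e-06 in the authors' deposited table). Gadd45a rose to 48.4 in nickel-treated cells against 33.8 in control cells. Bax, another pro-apoptotic target, did not pass the test, at 192 in nickel-treated cells and 196 in control cells.

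Cell cycle genes had small median changes. Of 30 mitosis genes, 5 were lower and 0 higher, with a median of -0.13 and 9 lower and 1 higher at an unadjusted p under 0.05. Plk1, a mitotic kinase, fell to an RPKM of 59.4 in nickel-treated cells against 81.6 in control cells, and Mki67, a proliferation marker, fell to 27.5 in nickel-treated cells against 35.8 in control cells. Of 40 replication genes, 2 were lower and 0 higher, which is near the 5.28% of all genes called lower. Their median was -0.15. At an unadjusted p under 0.05, 9 were lower and 1 higher, where 11.7% of all genes were lower and 12.2% higher. Rfc4, a subunit of the clamp loader, fell to 38.4 in nickel-treated cells against 61.9 in control cells, while Pcna did not pass the test, at 163 in nickel-treated cells and 170.0 in control cells.

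Several housekeeping programmes held few or no calls. Among 51 ribosomal protein genes 0 passed, with 2 higher and 1 lower at an unadjusted p under 0.05 and a median of 0.02. Among 28 cholesterol genes 0 passed, with 2 higher and 2 lower at an unadjusted p under 0.05 and a median of 0.04. Of 59 nuclear genes of oxidative phosphorylation, 1 was lower and 0 higher, with 5 lower and 0 higher at an unadjusted p under 0.05: Uqcrfs1, the Rieske protein of complex III, had an RPKM of 69.9 in nickel-treated cells and 95.5 in control cells. Of the 13 mitochondrially encoded genes, 1 was lower and 0 higher, with 2 lower and 0 higher at an unadjusted p under 0.05: mt-Cytb had 1350 in nickel-treated cells and 2010 in control cells. These genes were counted unevenly: mt-Co1 had 5640 in nickel-treated cells and 6520 in control cells, but mt-Co2 3.56 and 3.87 and mt-Nd3 0.500 and 0.346. Values of mt-Co3, mt-Atp6, mt-Atp8 and mt-Nd4l were likewise low. Small changes could not be seen in the low members, with an SE of 0.39 for mt-Co2 and 1.53 for mt-Nd3.

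Chromatin regulators were examined because nickel acts on dioxygenases and because the series asks about epigenetic repression. Of 29 JmjC genes, 3 were higher and 1 lower, with a median of 0.03. Kdm3a, an H3K9 demethylase that HIF induces, rose to an RPKM of 57.7 in nickel-treated cells against 47.7 in control cells (log2 fold change 0.38, SE 0.13, adjusted p = 0.034 in the authors' deposited table). Kdm6b, an H3K27 demethylase, did not pass the test, at 10.2 in nickel-treated cells and 8.49 in control cells. The lower member was Kdm5d, a gene of the Y chromosome, listed at 0 in nickel-treated cells and at 0.0651 in control cells.

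Polycomb genes had 5 of 37 higher and 1 lower, with a median of 0.01. The core of the complex that methylates H3K27 did not pass the test. Ezh2, its methyltransferase, had an RPKM of 58.9 in nickel-treated cells and 71.2 in control cells. Suz12 had 77.5 in nickel-treated cells and 78.1 in control cells, and Eed had 93.4 in nickel-treated cells and 112 in control cells. Accessory members were higher, among them Mtf2, at 125 in nickel-treated cells and 98.7 in control cells, Aebp2, at 26.8 in nickel-treated cells and 21.0 in control cells, and Phc3, at 3.94 in nickel-treated cells and 2.39 in control cells. Bap1, which removes ubiquitin from H2A, fell to 29.2 in nickel-treated cells against 38.3 in control cells.

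In the opposing MLL and Trithorax group, 4 of 20 were higher and 1 lower, with a median of 0.07. The higher ones were the methyltransferases Kmt2a, Kmt2b, Kmt2d and Ash1l. Kmt2d had an RPKM of 8.90 in nickel-treated cells and 6.27 in control cells (log2 fold change 0.52, SE 0.12, adjusted p = 0.00042 in the authors' deposited table). Ash2l, a core subunit of the KMT2 complexes, fell to 85.4 in nickel-treated cells against 124 in control cells (log2 fold change -0.51, SE 0.11, adjusted p = 9.8e-05 in the authors' deposited table). For H3K9 methylation and retroelement repression, 4 of 26 were lower and 0 higher, with 6 lower and 1 higher at an unadjusted p under 0.05 and a median of -0.08. Chaf1a and Chaf1b, subunits of the histone chaperone CAF-1, fell to 27.9 and 35.1 in nickel-treated cells, against 37.3 and 46.3 in control cells. Trim28 and Setdb1 did not pass the test, Trim28 at 586 in nickel-treated cells and 468 in control cells.

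Of 15 DNA methylation and TET genes other than the de novo enzymes and Tet2 given above, 2 were higher and 2 lower, with a median of 0.02. Dnmt1, the maintenance methyltransferase, fell to an RPKM of 57.8 in nickel-treated cells against 75.4 in control cells (log2 fold change -0.36, SE 0.11, adjusted p = 0.012 in the authors' deposited table). Mbd3, a subunit of the NuRD complex, fell to 54.3 in nickel-treated cells against 72.6 in control cells. Gadd45b and Gadd45a were the higher members, Gadd45b at 14.5 in nickel-treated cells and 9.07 in control cells. Uhrf1, which recruits Dnmt1, did not pass the test, at 102 in nickel-treated cells and 117 in control cells.

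Germline genes, many of which are silenced by promoter methylation outside germ cells, had 8 of 41 lower, 3 higher and a median of -0.05. Piwil4, a PIWI protein of fetal male germ cells (chromosome 9, 14701776 to 14740672), fell to an RPKM of 0.240 in nickel-treated cells against 4.48 in control cells, a log2 fold change of -4.36 (SE 0.28, adjusted p = 4.9e-51) in the authors' deposited table. Sohlh2, a germ cell factor, fell to 7.37 in nickel-treated cells against 18.0 in control cells, and Fkbp6, of the piRNA pathway, fell to 3.22 in nickel-treated cells against 8.35 in control cells. Zcwpw1, a histone reader of meiosis, rose to 26.6 in nickel-treated cells against 11.7 in control cells (log2 fold change 1.20, SE 0.15, adjusted p = 1.7e-13 in the authors' deposited table), and Stra8, the gatekeeper of meiosis, rose to 19.3 in nickel-treated cells against 11.2 in control cells.

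Of 25 maternal-effect and oocyte genes in the table, 14 had an adjusted p, 3 were lower and 2 higher. Their median was -0.36, and -0.135 on the log2(RPKM + 1) scale. Khdc3, a subunit of the oocyte's subcortical complex, fell to an RPKM of 7.70 in nickel-treated cells against 34.1 in control cells (log2 fold change -2.20, SE 0.17, adjusted p = 5.6e-37 in the authors' deposited table). Nlrp14 fell to 0.428 in nickel-treated cells against 2.41 in control cells. Tle6, another subunit of the complex that holds Khdc3, rose to 4.99 in nickel-treated cells against 2.49 in control cells, and Kit, the receptor of stem cell factor, rose to 37.2 in nickel-treated cells against 19.6 in control cells (log2 fold change 0.94, SE 0.11, adjusted p = 7.2e-15 in the authors' deposited table). Of 45 imprinted genes, 6 were higher and 5 lower, with a median of 0.03. Cdkn1c, a cell cycle inhibitor, fell to 8.40 in nickel-treated cells against 20.5 in control cells, and Zfp57, which maintains imprints, rose to 191 in nickel-treated cells against 141 in control cells.

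Adhesion and matrix genes changed in both directions. Of 40 genes of collagens, laminins and matrix, 8 were higher and 3 lower, with a median of 0.22, and of 0.028 on the log2(RPKM + 1) scale. The basement membrane collagen Col4a1 rose to an RPKM of 13.1 in nickel-treated cells against 7.43 in control cells (log2 fold change 0.83, SE 0.17, adjusted p = 3.7e-05 in the authors' deposited table). The laminin chain Lamb2 rose to 8.21 in nickel-treated cells against 4.97 in control cells, while Lamb1 fell to 19.2 in nickel-treated cells against 26.5 in control cells. Serpinh1, a collagen chaperone, fell to 16.2 in nickel-treated cells against 25.5 in control cells.

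Of 29 genes of epithelial and mesenchymal state, 6 were lower and 4 higher, with a median of -0.02. The 6 lower ones, Cdh1, Grhl2, Esrp1, Ocln, Cldn4 and Krt7, are known from epithelia, among them Cdh1, which encodes E-cadherin, at 68.0 in nickel-treated cells and 94.6 in control cells (log2 fold change -0.46, SE 0.11, adjusted p = 0.00065 in the authors' deposited table). Cldn4, a tight junction claudin, fell to 30.9 in nickel-treated cells against 55.4 in control cells, and Grhl2, an epithelial transcription factor, fell to 3.56 in nickel-treated cells against 6.5 in control cells. The epithelial gene Krt8, a keratin, went the other way, at 6.18 in nickel-treated cells and 3.11 in control cells. Snai1, a repressor of Cdh1, rose to 1.51 in nickel-treated cells against 0.557 in control cells, and Vim, the mesenchymal intermediate filament, did not pass the test, at 53.8 in nickel-treated cells and 57.6 in control cells.

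Across the whole table, the 12 largest rises at an RPKM of at least 1, predicted genes left out, began with Esp24, a secreted peptide of exocrine glands, at 1.11 in nickel-treated cells and 0.0752 in control cells. H2-Q6, a nonclassical class I histocompatibility gene, followed, at 3.01 in nickel-treated cells and 0.259 in control cells (log2 fold change 3.56, SE 0.43, adjusted p = 3e-14 in the authors' deposited table). Lgals6, a galectin, had 5.81 in nickel-treated cells and 0.877 in control cells. Dio3, the deiodinase that inactivates thyroid hormone, rose to 1.27 in nickel-treated cells against 0.215 in control cells, and the PRAME-like gene Pramel16 rose to 3.61 in nickel-treated cells against 0.682 in control cells. Adad2, an RNA-binding protein of the testis, rose to 5.26 in nickel-treated cells against 1.03 in control cells. Foxa1, Tmem92, Arg2, Sp110, Usp17ld and Aqp5 completed them.

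The 12 largest falls, likewise with predicted genes left out, began with Alb, which encodes serum albumin, at 0.0221 in nickel-treated cells and 1.97 in control cells (log2 fold change -6.52, SE 0.71, adjusted p = 2.7e-17 in the authors' deposited table). Wfdc15a had 0.0314 in nickel-treated cells and 1.54 in control cells, and Nsg2, a neuronal vesicle protein, had 0.0707 in nickel-treated cells and 1.57 in control cells. Gpx6, another glutathione peroxidase, fell to 0.0426 in nickel-treated cells against 1.03 in control cells, and Maml2, a Notch coactivator, fell to 0.110 in nickel-treated cells against 1.26 in control cells. Cd80, a costimulatory ligand of T cells, fell to 0.904 in nickel-treated cells against 8.91 in control cells (log2 fold change -3.19, SE 0.22, adjusted p = 1.6e-44 in the authors' deposited table). Piwil4, Hnf4a, Defb42, Gpx2-ps1, Ccdc172 and Rsc1a1 completed the list.

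In RPKM itself, the largest falls included Actb, which encodes beta-actin, at 512 in nickel-treated cells and 759 in control cells (log2 fold change -0.54, SE 0.17, adjusted p = 0.015 in the authors' deposited table). Pfn1, the actin-binding profilin, fell to 197 in nickel-treated cells against 410.0 in control cells (log2 fold change -1.03, SE 0.35, adjusted p = 0.031 in the authors' deposited table). Tdh, the threonine dehydrogenase that mouse ES cells depend on, fell to 176 in nickel-treated cells against 273 in control cells. Aldoa, a glycolytic aldolase, rose to 1380 in nickel-treated cells against 1080 in control cells, and Igfbp2, an insulin-like growth factor binding protein, rose to 489 in nickel-treated cells against 291 in control cells.

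Some of these values share reads with other genes. Strand use in counting is not given in the sources used here, so reads of genes that overlap on opposite strands cannot be told apart if it was ignored. Among the genes above this touches Hnf4a, Pdx1, Sox21, Phox2a, Dbx2, Pax8, Slc2a1, Plod2, Arg2, Tbx3, Dnmt3a, Dnmt3l, Setdb1, Gpx4, Zcwpw1, Col4a1, Chaf1a, Rfc4, Ccn2, Grhl2 and Gadd45a. H2-Q6, Lgals6, Gpx2-ps1, Rsc1a1, Dnmt1, Sox2 and Ctnnb1 overlap another gene on their own strand.

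The lower doses on day 6 used the same control libraries, so their values are given side by side and not as separate evidence. Nanog had an RPKM of 195 in control cells, 263 at 100 µM, 272 at 150 µM and 345 at 200 µM. Slc16a3 had 31.3, 45.9, 49.2 and 64.1 in the same order, and Tmem92 had 1.40, 3.89, 5.34 and 7.11. Among falls, Piwil4 had 4.48 in control cells, 2.56 at 100 µM, 0.706 at 150 µM and 0.240 at 200 µM, Cd80 had 8.91, 3.98, 2.48 and 0.904, and Khdc3 had 34.1, 29.8, 13.5 and 7.70. In these group values each gene moved the same way at every step of dose. The genes were picked from the calls at 200 µM, and the steps between doses were not tested.

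Other genes did not follow the doses in steps. Chac1 had an RPKM of 21.0 in control cells, 8.31 at 100 µM, 5.70 at 150 µM and 6.59 at 200 µM. Mt1 had 153 in control cells, 163 at 100 µM, 152 at 150 µM and 214 at 200 µM, while Ddit4 had 84.5, 84.3, 71.4 and 137, with a value above that of control cells at 200 µM alone. Fos had 2.13 in control cells, 4.02 at 100 µM, 5.02 at 150 µM and 0.969 at 200 µM. Alb had 1.97 in control cells and 1.89 at 100 µM, was listed at 0 at 150 µM, and had 0.0221 at 200 µM.

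**Figure D4:**
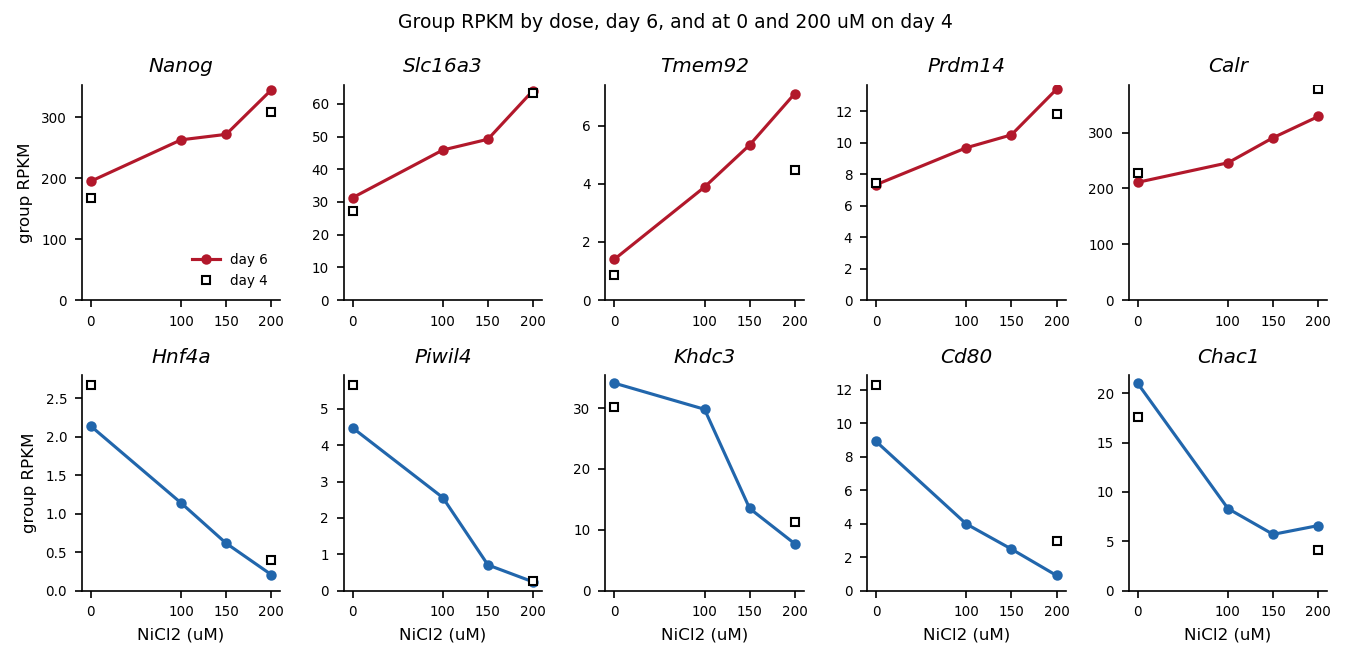
Group RPKM against NiCl2 dose on day 6 (filled points joined by lines) and at 0 and 200 µM on day 4 (open squares) for 5 genes that were higher and 5 that were lower at 200 µM on day 6. Each point is the authors' value for a group of 2 libraries, so no error is drawn. Nanog reaches 345 and Piwil4 0.240 at 200 µM on day 6, and on day 4 the same genes had 308 and 0.255 at 200 µM.

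The same dose was also sampled on day 4, with its own 2 nickel and 2 control libraries, so day 4 shares no library with day 6. On day 4, 807 genes were higher and 735 lower at 200 µM, 5.00% and 4.55% of the genes with an adjusted p. Of the day 6 calls, 483 genes were higher on both days, which is 48.2% of the day 6 and 59.9% of the day 4 list. Another 458 were lower on both days, 50.9% of the day 6 and 62.3% of the day 4 list. None was higher on day 6 and lower on day 4, and 1, Gm20604, was lower on day 6 and higher on day 4. Of the 959 day 6 calls without a call on day 4, 927 had a log2 fold change of the same sign on day 4.

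The change between days was tested gene by gene with a two-sided normal test on the difference of the 2 log2 fold changes, with Benjamini-Hochberg adjustment over 16006 genes. It passed for 9 genes, 0.0562% of those tested. Of the 9, 8 overlap another gene on the same strand, and E130218I03Rik overlaps one on the other strand. At an unadjusted p under 0.05 the test called 334 genes, fewer than the 800 that 5% of the genes would make. Data were simulated for this test over 12092 genes at an RPKM of at least 1. Errors were drawn as normal with the same SEs that the test used. There, 67 of 100 genes with a given log2 difference of 1 and 93 of 100 with one of 2 were recovered. Of 11892 genes given no difference, 10 were called. These rates hold only where the SEs are right, which the simulation could not check, and do not cover genes at lower levels. By its setting, 5% of genes without a difference have an unadjusted p under 0.05, but the data had fewer, 334 against 800. The simulated setting thus differed from the data, and the rates may not be those of the data.

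Among the members described above, Nanog had a log2 fold change of 0.81 on day 6 and 0.88 on day 4 in the authors' deposited tables, and the difference of -0.07 (SE 0.14) had an adjusted p of 1 in the normal test. Piwil4 had -4.36 on day 6 and -4.24 on day 4, and Chac1 -1.66 and -2.05, in the same tables. Of the developmental transcription factors, 9 of 130 were higher and 5 lower on day 4, where 5.00% of all genes were higher and 4.55% lower. These day 4 shares stood near those of all genes. The 6 higher on both days were Foxa1, Gata4, Msx2, Pax6, Sox10 and Sox21. All 5 lower ones, Hnf4a, Eya1, Pax8, Neurod1 and Dbx2, were lower on both days. Of the 13 higher genes of the 2-cell-like list, 7 were also higher on day 4, and of the 16 in the hypoxia list, 14. Dio3 had an RPKM of 1.27 in nickel-treated cells and 0.215 in control cells on day 6, and 0.211 in nickel-treated cells and 0.212 in control cells on day 4, but its difference between days did not pass.

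**Figure D5:**
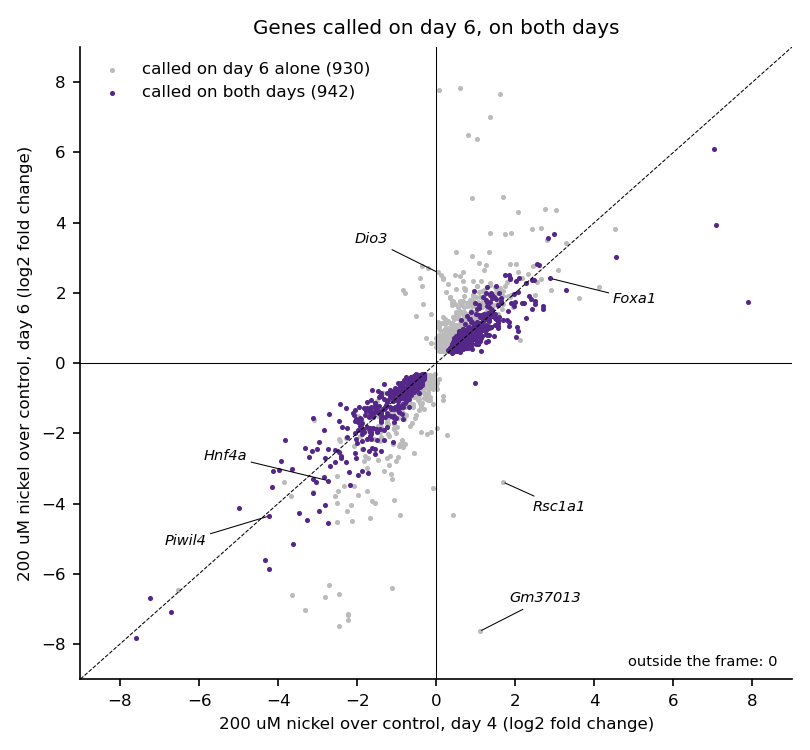
Log2 fold change of 200 µM nickel over control on day 6 (vertical) and on day 4 (horizontal) for the 1872 genes called on day 6 that also had an adjusted p on day 4. Purple points were called on both days and grey points on day 6 alone. Points of the same sign lie at the lower left and upper right and number 1847 of the 1872, and Gm37013 and Rsc1a1 lie at the lower right.

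Markers of other cell types summed to less than those of ES cells, although the neural marker Stmn2 exceeded several ES markers. The 10 fibroblast or feeder markers summed to an RPKM of 7.92 in nickel-treated cells and 9.48 in control cells, with Lum, Postn and Fap listed at 0 in both groups and Thy1 lower. The 12 trophoblast markers summed to 12.3 in each group, with Prl3d1 and Tpbpa listed at 0 in both. Hand1, a trophoblast and heart factor, was higher, at 0.928 in nickel-treated cells and 0.139 in control cells, and Krt7 was lower, at 0.536 in nickel-treated cells and 1.70 in control cells. The 12 primitive endoderm markers summed to 17.5 in nickel-treated cells and 19 in control cells, with 1 higher (Gata4) and 3 lower, Hnf4a, Cubn and Dab2. The 12 markers of mesoderm and heart summed to 11.8 in nickel-treated cells and 10.5 in control cells, with Kdr lower. Blood and endothelial markers summed to 4.42 in nickel-treated cells and 6.84 in control cells, with Emcn and Hba-x listed at 0 in both and Tek lower. The 12 neural markers summed to 165 in nickel-treated cells and 245 in control cells, of which Stmn2 alone gave 122 in nickel-treated cells and 195 in control cells. The part of changes in cell type in the values above was not tested.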

How the data were processed

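Poly(A) RNA libraries of E14Tg2A cells were made with a stranded mRNA kit, per the labels. The submitters' processing notes name STAR, DESeq2 and GRCm38, with versions and settings not given in the sources used here. The deposited table gives, per the file headers, the authors' RPKM of each group, log2 fold change, p-value and adjusted p-value. The adjusted values equal a Benjamini-Hochberg adjustment over 17018 genes. Genes with an adjusted p under 0.05 are called here. Coordinates are the authors' GRCm38 ones, with the start counted from 1. SEs were taken as the size of the log2 fold change over the normal quantile of its p-value, and the day difference test used them. That test was tested on simulated data. Depth was recovered from single-exon genes, and covers counting error only. Gene lists (40), markers and the naming rule were chosen with earlier results of these data known. Named genes are the 12 largest rises and falls by log2 fold change and the 6 largest by RPKM at an RPKM of at least 1, up to 5 called and 2 other members of each list per direction, up to 6 genes per direction of the day difference, and a few read always. Msx2, Pax6, Ocln, Hand1, Thy1, Kdr, Tek, Cubn, Dab2 and Stmn2 were chosen after their values were seen. Some genes that meet the naming rule are not reported here. Alternatives were other thresholds, an RPKM filter, pseudocounts of 0.1 and 1, another adjustment and removal of overlapping genes. Python 3.11.15, numpy 2.4.6, pandas 2.3.3 and scipy 1.17.1 were used.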

Additional observations from a re-analysis of the deposited data

Results flagged for a closer look

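Between day 6 and day 4 at 200 µM, 9 genes differed in their log2 fold change by the normal test of the difference itself (adjusted p under 0.05). The differences, day 6 minus day 4, were -8.74 for Gm37013, -5.09 for Rsc1a1, -1.56 for Gm20604, 2.57 for Moap1, 4.69 for Pcdhga5, -5.48 for E130218I03Rik, -10.54 for Xntrpc, 5.08 for Rps27 and -1.21 for Rps27rt. All but E130218I03Rik overlap another gene on the same strand, and E130218I03Rik overlaps one on the other strand. Rps27 and Rps27rt cover nearly the same span of chromosome 3, as do Moap1 and part of Gm20604 on chromosome 12. On day 4, Rps27 had an RPKM of 14.2 in nickel-treated cells and 706 in control cells, while Rps27rt had 1500 in nickel-treated cells and 701 in control cells. On day 6, Rps27 had 810.0 in nickel-treated cells and 852 in control cells, and Rps27rt 805 in nickel-treated cells and 847 in control cells. E130218I03Rik had 1.57 in nickel-treated cells and 2.98 in control cells on day 6, and 6.16 in nickel-treated cells and 0.263 in control cells on day 4. The part of shared reads in these differences was not tested. No group had enough libraries with values of their own for an outlier to be sought.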

How the results depend on the processing

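At an adjusted p under 0.01, 559 genes were higher and 488 lower in nickel-treated cells, against 1002 and 899 at 0.05. With a log2 fold change of at least 1 in size as well, 359 were higher and 336 lower. The counts stayed within 1.5 times at an adjusted p under 0.1 (1394 and 1305), with an RPKM of at least 1 in a group (852 and 769), with adjustment over all genes with a p-value (947 and 856) and without genes overlapping on the same strand (911 and 851). The sign of the RPKM ratio was that of the authors' log2 fold change for every called gene with either pseudocount. The 9 genes that differed between days came down to 1 without genes overlapping on the same strand, by construction of that setting. Of 159 list medians under alternatives, 139 moved by less than the median SE, and 20 moved more. The sign changed in 12, of which 11 were of medians under 0.1 in size and 1 that of the clustered protocadherins, 0.63 and then -0.567 among members at an RPKM of at least 1. No paired analysis was possible because the tables give 1 value per group, and for the same reason leaving out each replicate was not run. Depth limits genes under an RPKM of 1, where 150 of the higher and 130 of the lower calls lie in both groups.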

Other observations

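Immune genes changed in both directions. Of 23 interferon and innate immunity genes, 4 were lower and 3 higher in nickel-treated cells, with a median log2 fold change of -0.11. Aire, which is best known for driving tissue antigens in the thymus, had an RPKM of 20 in nickel-treated cells and 8.09 in control cells, a log2 fold change of 1.34 (SE 0.18, adjusted p = 2.6e-11) in the authors' deposited table. Ifit2, an interferon-induced gene, had 0.264 in nickel-treated cells and 1.02 in control cells, and Stat2 had 13.9 in nickel-treated cells and 9.65 in control cells.

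Of 57 clustered protocadherins, cell surface adhesion molecules of neurons, 31 had an adjusted p, 3 were higher and 2 lower, with a median of 0.63, and of 0.052 on the log2(RPKM + 1) scale. All 5 called members overlap other members on the same strand, so the split of their reads is uncertain. Pcdhga1 had an RPKM of 2.42 in nickel-treated cells and 1.35 in control cells, and Pcdhga11 had 0.707 in nickel-treated cells and 1.49 in control cells.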
